A study of Homo sapiens with 4 samples.

Results

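The transcripts of 10 subunits of condensin and cohesin were followed in U87MG, an established human glioblastoma cell line. They were taken by gene name (SMC1A, SMC2, SMC3, SMC4, NCAPD2, NCAPD3, NCAPG, NCAPG2, NCAPH and RAD21), and all 10 were found among the 60617 genes listed in the files and passed the filter on low counts together with 17207 genes in all. The cells were grown as spheres in DMEM/F12 medium for stem cells, which held the growth factors EGF (20 ng/ml) and bFGF (20 ng/ml) besides N2 supplement and B27 at 2%. The untreated group and the group given abemaciclib, an inhibitor of the kinases CDK4 and CDK6, had 2 poly-A RNA libraries each, all labelled day 14. Neither the drug dose nor any vehicle of the untreated spheres is stated in the labels. A single cell line limits what the groups stand for, and nothing in the labels says that the libraries of a group came from separate cultures, so p-values reflect no more than the spread among these libraries, and that spread may be technical.

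Condensin and cohesin are ring-shaped protein machines that fold DNA into loops by using ATP. Each is built on a pair of long SMC ATPases whose heads are bridged by a kleisin protein, and HEAT-repeat proteins that bind DNA sit on the kleisin. SMC2 and SMC4 serve both condensin complexes. Condensin I adds the kleisin NCAPH with NCAPD2 and NCAPG, and meets the chromosomes after the nuclear envelope has broken down. Condensin II adds the kleisin NCAPH2 with NCAPD3 and NCAPG2, and is in the nucleus throughout the cell cycle. Cohesin joins SMC1A and SMC3 through the kleisin RAD21 with STAG1 or STAG2, folds the interphase genome and holds sister chromatids together from replication until separase cuts RAD21 at anaphase.

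The libraries held 23684260 to 33418075 expected counts (estimated reads per gene), and levels are given as CPM, in which each count is divided by the TMM-adjusted total of its library. A count of 0 allows up to 3 counts, which is 0.0886 to 0.125 CPM by library. That limit covers counting error only. Each member had 189 counts or more in each library. The share of counts from mitochondrially encoded genes was 4.27% and 4.66% untreated and 11.8% and 11.7% after the drug. Their part in the results was not tested. Totals that leave them out, with no TMM scaling, add 0.17 to every log2 fold change and put the median of all tested genes at 0.16. With TMM scaling kept, leaving them out put that median at -0.01 and RAD21 at -0.73, as in the main fit. Of 9 glioma markers, VIM, CD44, NES, PDGFRA and EGFR were above 30 CPM in each library, OLIG2 stood at 2.27 to 5.59 CPM, SOX2 had 1 to 12 counts, GFAP 4 to 10 and S100B 0 to 3. Of the 7 that could be tested, 6 were lower after the drug, among them CD44 (log2 fold change -1.48 ± 0.03) and PDGFRA (-1.28 ± 0.05), and SOX2 was higher, from 1 and 2 counts to 11 and 12. At the same threshold (edgeR adjusted p under 0.05), 39.3% of all tested genes were lower and 38.0% higher. Summed over each list, markers of macrophages and microglia (8 genes) lay at up to 12.6 CPM untreated and at 7.06 and 6.26 CPM after the drug, with 2 lower and 1 higher of 3 tested and AIF1 at 0 counts in all 4 libraries. Most of that sum was CSF1R, which fell from 10.9 and 11.5 to 5.77 and 5.31 CPM (-1.02 ± 0.12). CD14 fell too (-1.11 ± 0.45), and PTPRC rose from 4 and 3 counts to 18 and 14. The sums were 22.0 and 23.9 against 22.3 and 22.2 CPM for 6 endothelial markers and 18.9 and 17.5 against 9.93 and 9.86 CPM for 5 epithelial markers, with CDH5 at 4 counts or fewer and CDH1 at 2 or fewer. Within the endothelial sum PECAM1 fell from 9.78 and 9.78 to 1.37 and 0.915 CPM (-3.14 ± 0.18), while KDR (0.83 ± 0.10) and VWF (0.40 ± 0.15) rose. Of 3 epithelial genes tested, KRT8 fell (-1.39 ± 0.11), EPCAM rose (1.17 ± 0.25) and KRT18 did not pass. The part of these markers in the results was not tested. In bulk RNA, fewer cells with a transcript and less of it per cell cannot be told apart.

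The subunits did not move as complexes. After abemaciclib, 3 members fell (NCAPD2, RAD21 and SMC3), 4 rose (NCAPD3, SMC2, NCAPG and SMC1A), and 3 did not pass the test (SMC4, NCAPG2 and NCAPH). A member was called at a Benjamini-Hochberg adjusted p under 0.05 in edgeR's quasi-likelihood test over all genes. By that rule 77.3% of all tested genes were called, 39.3% lower and 38.0% higher, so the 7 of 10 called here are close to the share among all genes. The members' median log2 fold change was 0.08, beside -0.01 for all tested genes. The largest fall, of NCAPD2, and the largest rise, of NCAPD3, were those of a homologous pair of HEAT-repeat subunits. NCAPG with NCAPG2 and NCAPH with NCAPH2 also differ between condensin I and condensin II. NCAPD2 and NCAPD3 were the only members past 2-fold, 1 in each direction, beside 17.4% of all genes called at least 2-fold lower and 13.8% called at least 2-fold higher. For 7 of the 10 members no untreated library lay within the range of the treated ones or the reverse, which held for 87.9% of all tested genes.

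**Figure D1:**
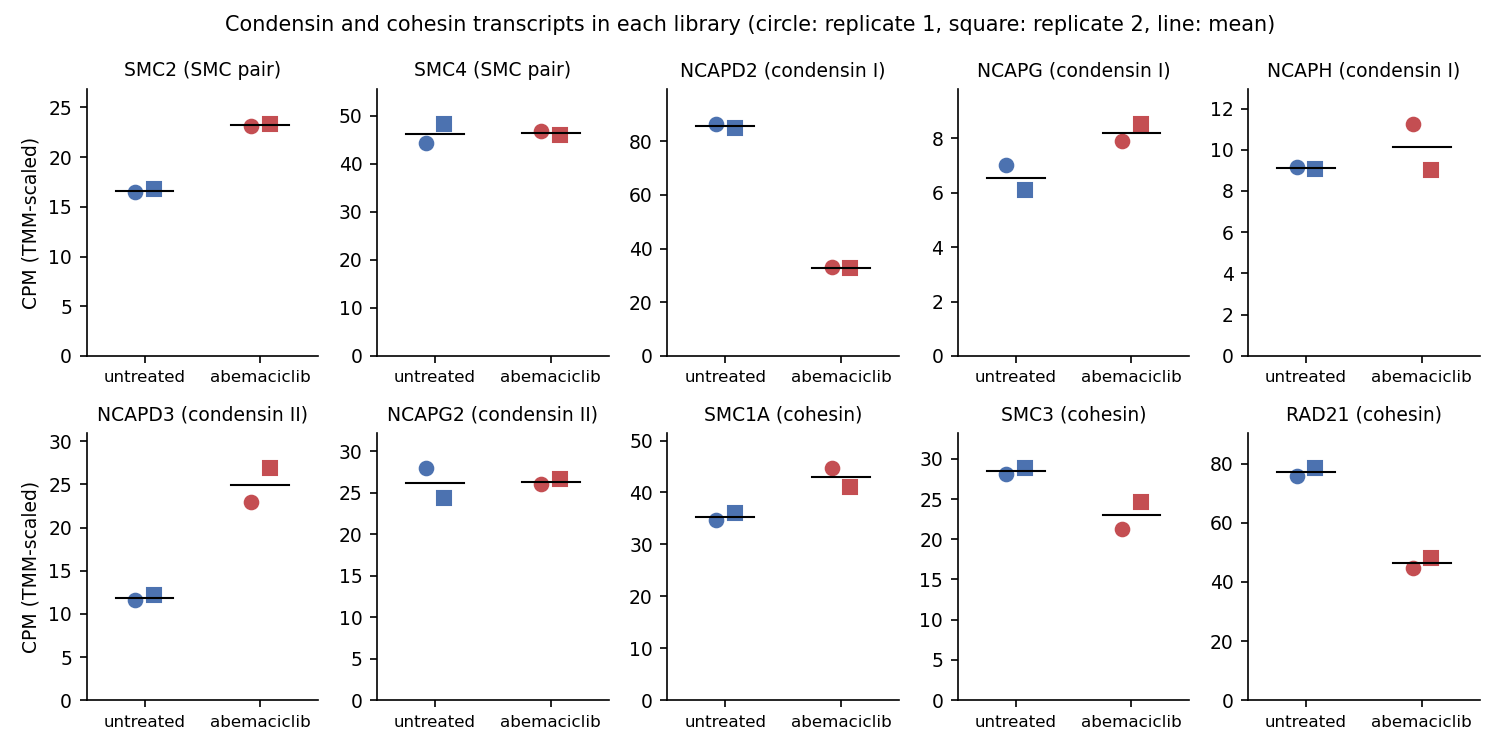
Level of each member (TMM-scaled CPM, y axis from 0) in the untreated and abemaciclib libraries, with replicate 1 as a circle, replicate 2 as a square and the mean of 2 libraries as a line. NCAPD2 and RAD21 sit lower and NCAPD3 and SMC2 higher in both abemaciclib libraries, while the points of SMC4, NCAPG2 and NCAPH overlap.

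NCAPD2 encodes a HEAT-repeat subunit that only condensin I carries (ENSG00000010292, GRCh38 chromosome 12, 6493356 to 6531955, plus strand). It stood at 86.5 and 85.0 CPM in the untreated libraries and at 33.2 and 32.7 CPM after the drug. The groups were far apart and the replicates nearly equal. The means were 85.8 ± 1.02 and 32.9 ± 0.361 CPM (SD, n = 2), a 2.60-fold fall or log2 fold change -1.38 ± 0.05 (SE; edgeR adjusted p = 1.71e-22).

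NCAPD3, its counterpart in condensin II (ENSG00000151503, chromosome 11, 134150119 to 134225454, minus strand), went the other way. It stood at 11.6 and 12.1 CPM untreated and at 23.0 and 26.9 CPM after the drug, so that the lowest treated library was above the highest untreated one. The means were 11.9 ± 0.381 and 25.0 ± 2.74 CPM (SD, n = 2), a 2.11-fold rise or log2 fold change 1.08 ± 0.09 (edgeR adjusted p = 9.68e-13).

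The other pair of condensin HEAT-repeat subunits changed little. NCAPG, which anchors condensin I to DNA together with the kleisin (ENSG00000109805, chromosome 4, 17810902 to 17844862), stood at 7.00 and 6.11 CPM untreated and 7.89 and 8.53 CPM after the drug. The groups did not overlap, but they were less than 1 CPM apart at their nearest points. Its log2 fold change was 0.34 ± 0.12 (edgeR adjusted p = 0.0145), a call that was lost in DESeq2 (adjusted p = 0.198), without untreated replicate 2 (adjusted p = 0.147) and without abemaciclib replicate 2 (adjusted p = 0.112). NCAPG2, the condensin II counterpart (ENSG00000146918, chromosome 7, 158631311 to 158704829), stood at 28.0 and 24.4 CPM untreated and 26.0 and 26.6 CPM treated. The treated values lay between the untreated ones. Its log2 fold change was 0.01 ± 0.07 (edgeR adjusted p = 0.856), with a 95% interval of -0.13 to 0.16, which covers neither the fall of NCAPD2 nor the rise of NCAPD3.

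Short stretches of promoter are shown for the members whose 250 bases before a RefSeq start hold the letters of the CHR, a short element known from promoters of genes that are repressed outside G2 and mitosis. They are given 5′ to 3′ along the gene's strand (RefSeq, GRCh38.p14), in lower case with matches to the searched letters in capitals. The letters were TTTGAA or TTCGAA for the CHR, TTGGCGC or TTCCCGC or TTCGCGC or TTGCCGC for an E2F-type site and CCAAT for the box bound by NF-Y, on both strands. The last line is the whole window at the outer start of NCAPD3, the member that rose furthest, which has no match to any of the 3.
NCAPD2 (chr12:6493945-6493974, plus strand): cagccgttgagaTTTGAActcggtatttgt
NCAPG (chr4:17810932-17810961, plus strand): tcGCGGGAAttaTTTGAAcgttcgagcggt
SMC3 (chr10:110567532-110567561, plus strand): cagaattctagaTTCAAAagaaatccacca
SMC4 (chr3:160399563-160399592, plus strand): gccgcactttttTTCAAAttagtggatccc
NCAPD3 (chr11:134225462-134225711, minus strand): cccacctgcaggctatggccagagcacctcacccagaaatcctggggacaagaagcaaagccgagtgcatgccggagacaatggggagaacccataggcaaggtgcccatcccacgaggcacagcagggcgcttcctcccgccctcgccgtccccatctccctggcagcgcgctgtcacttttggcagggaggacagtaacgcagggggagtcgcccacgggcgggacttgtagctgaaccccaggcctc

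RefSeq promoter windows were at hand for 9 of the 10 members, at 13 starts. None was at hand for RAD21, so its promoter was not searched. The CHR letters were found for 4 members (NCAPD2, NCAPG, SMC3 and SMC4), in a window length where 14.3% of all 35116 starts hold them. E2F-type letters were found for 4 members (NCAPD3, NCAPG, SMC1A and SMC4) beside 10.9% of all starts, and CCAAT for 3 (NCAPD2, NCAPD3 and NCAPH) beside 32.0%. Those shares are per start, and by start the members had the CHR at 4 of 13, E2F-type letters at 4 of 13 and CCAAT at 3 of 13. In NCAPG an E2F-type match on the reverse strand and a CHR match lie next to each other, 45 and 35 bases before the start. The NCAPD2 window holds 4 matches to CCAAT on the reverse strand and 1 to the CHR. The second NCAPD3 start, further into the gene, has 1 E2F-type match and 2 to CCAAT. Members that share the CHR letters did not share a direction, since NCAPD2 and SMC3 fell, NCAPG rose and SMC4 did not pass the test. With the first 50 bases after the start included, 16.4% of all starts and 7 members, at 7 of the 13 starts, hold the CHR letters. The 3 added were NCAPG2, SMC2 and NCAPD3, the last at its second start and not at the one printed. A match describes letters and shows no bound factor.

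Among the kleisins, RAD21 of cohesin fell while NCAPH of condensin I did not pass the test. RAD21 (ENSG00000164754, chromosome 8, 116845935 to 116874866) stood at 75.7 and 78.5 CPM untreated and at 44.7 and 48.1 CPM after the drug, with no overlap. The means were 77.1 ± 1.98 and 46.4 ± 2.38 CPM (SD, n = 2), a 1.66-fold fall or log2 fold change -0.73 ± 0.05 (edgeR adjusted p = 2.67e-15).

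NCAPH (ENSG00000121152, chromosome 2, 96335787 to 96373845) stood at 9.15 and 9.08 CPM untreated and at 11.3 and 9.03 CPM after the drug. The second treated library lay just below both untreated ones and the first above them. Its log2 fold change was 0.14 ± 0.11 (edgeR adjusted p = 0.261), with a 95% interval of -0.09 to 0.37, and it passed only without abemaciclib replicate 2 (0.31, adjusted p = 0.0356). NCAPH2, the condensin II kleisin, which is not among the 10, rose slightly, from 42.6 and 40.0 CPM to 47.6 and 47.5 CPM (log2 fold change 0.21 ± 0.05, edgeR adjusted p = 6.85e-04).

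The SMC ATPases shifted within their pairs. SMC2 (ENSG00000136824, chromosome 9, 104094260 to 104141417) stood at 16.4 and 16.8 CPM untreated and at 23.2 and 23.4 CPM after the drug. Its log2 fold change was 0.48 ± 0.08 (edgeR adjusted p = 9.17e-07). Both treated libraries were above both untreated ones. SMC4, its partner in both condensins (ENSG00000113810, chromosome 3, 160399274 to 160434962), stood at 44.3 and 48.3 CPM untreated and 46.8 and 45.9 CPM treated. Its groups overlapped, and the log2 fold change was 0.00 ± 0.05 (edgeR adjusted p = 0.968; 95% interval -0.11 to 0.10).

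In cohesin the SMC partners moved in opposite directions. SMC1A (ENSG00000072501, chromosome X, 53374149 to 53422728) stood at 34.7 and 36.0 CPM untreated and at 44.7 and 41.1 CPM after the drug. Its log2 fold change was 0.27 ± 0.06 (edgeR adjusted p = 6.46e-05). SMC3, whose acetylation locks cohesin on replicated DNA (ENSG00000108055, chromosome 10, 110567691 to 110604636), stood at 28.1 and 28.8 CPM untreated and at 21.3 and 24.7 CPM after the drug. Its log2 fold change was -0.30 ± 0.07 (edgeR adjusted p = 3.81e-04), and without abemaciclib replicate 1 it was -0.19 (adjusted p = 0.0277). In neither gene did the groups overlap, and the changes were small, a 1.21-fold rise of SMC1A and a 1.23-fold fall of SMC3.

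Of the alternative HEAT-repeat subunits of cohesin, which are not among the 10, STAG2 fell and STAG1 rose. STAG2, which is mutated in some glioblastomas, stood at 28.9 and 26.2 CPM untreated and at 18.1 and 16.8 CPM after the drug (log2 fold change -0.66 ± 0.07, edgeR adjusted p = 2.42e-09). STAG1 stood at 12.6 and 14.5 CPM untreated and at 18.6 and 19.1 CPM after the drug (0.48 ± 0.09, edgeR adjusted p = 1.28e-05). Their sum was 41.5 and 40.7 CPM untreated and 36.6 and 36.0 CPM treated.

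**Figure D2:**
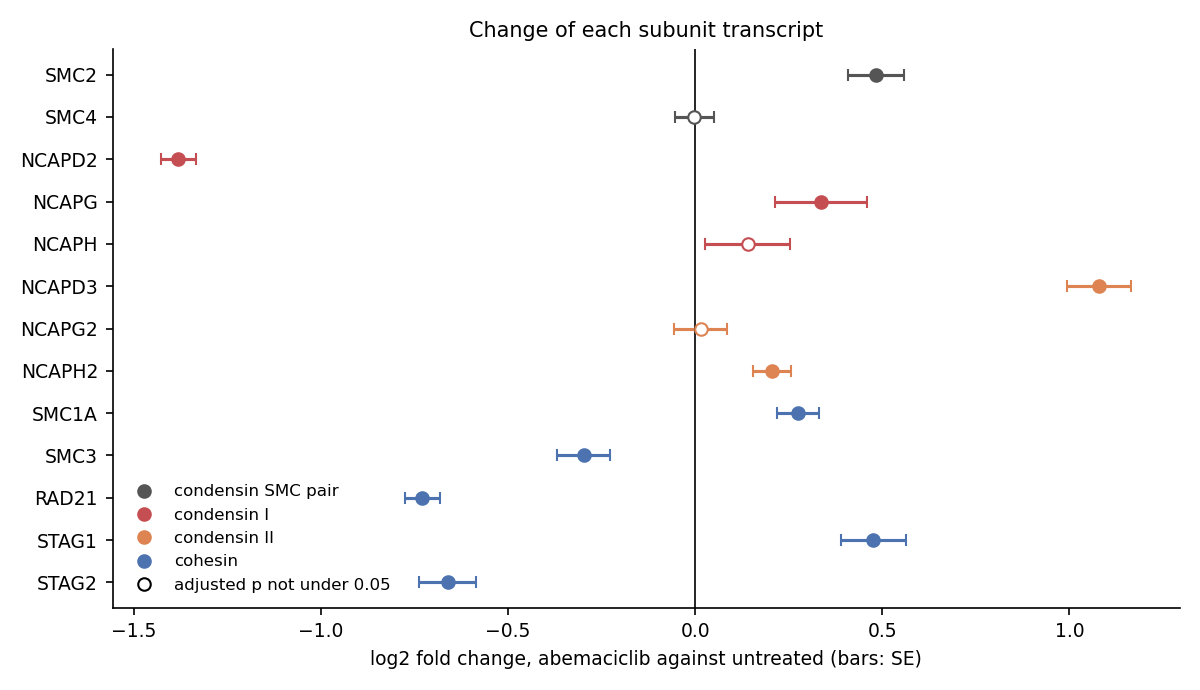
Log2 fold change, abemaciclib against untreated (x axis; bars are the SE of the edgeR fit), of the 10 members and of NCAPH2, STAG1 and STAG2, coloured by complex, with open points where the adjusted p was not under 0.05. NCAPD2 lies at -1.38 and NCAPD3 at 1.08, and in cohesin SMC1A and STAG1 lie to the right of 0 and SMC3, RAD21 and STAG2 to the left.

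The balance between subunits was then compared within each library, where sequencing depth cancels out. NCAPD2 had 7.45 and 7.00 times the counts of NCAPD3 in the untreated libraries and 1.44 and 1.22 times after the drug. The log2 ratio went from 2.85 ± 0.06 to 0.40 ± 0.17 (SD, n = 2), a difference of -2.45, or a 5.46-fold change of the ratio. The ratio of SMC4 to SMC2 went from 2.69 and 2.87 to 2.02 and 1.97, and the log2 ratio of RAD21 to SMC3 from 1.43 and 1.44 to 1.07 and 0.96. SMC1A over SMC3 rose from 1.24 and 1.25 to 2.10 and 1.67, with the treated libraries less alike than the untreated ones. NCAPG over NCAPG2 went from 0.251 and 0.251 to 0.304 and 0.321.

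In each of these 5 pairs the 2 groups did not overlap, which in CPM also held for 87.9% of all tested genes. With 2 libraries against 2 an exact two-sided permutation test cannot go below p = 0.333, and it gave that value for all 5 (0.4 when adjusted over the 6 pairs compared). NCAPH over NCAPH2 overlapped between groups (log2 ratio -2.18 ± 0.05 untreated and -2.23 ± 0.22 treated, n = 2; exact permutation p = 1.0). STAG2 over STAG1, a pair added after its values were seen, went from 2.30 and 1.81 to 0.973 and 0.880 with no overlap.

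**Figure D3:**
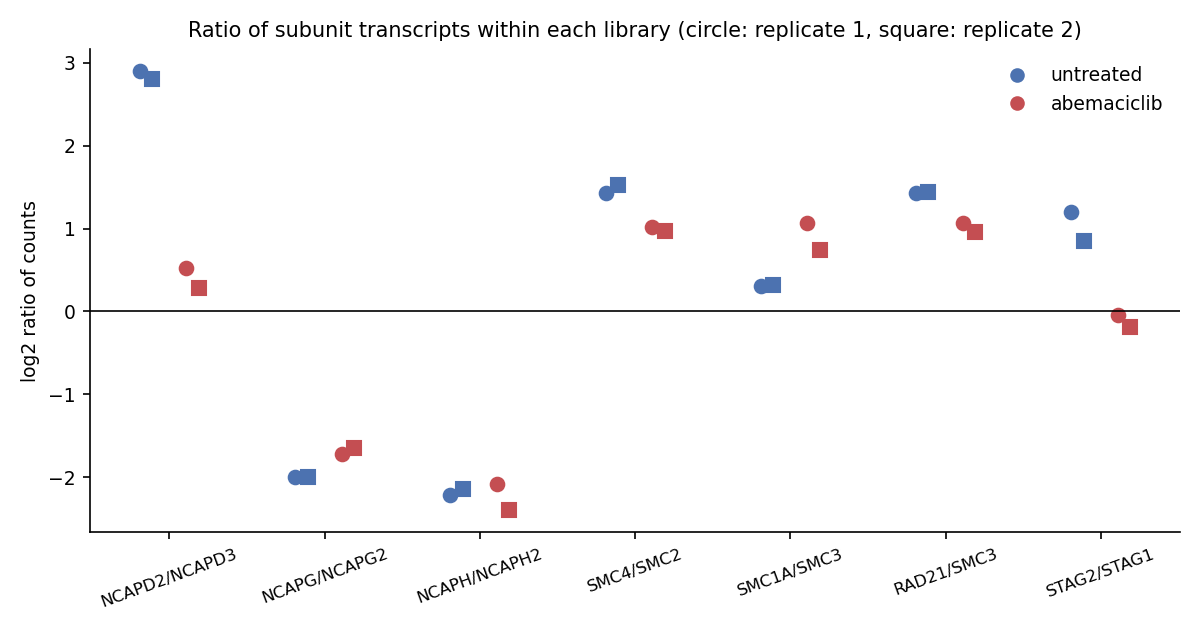
Log2 ratio of the counts of 2 subunits (y axis) within each library, untreated in blue and abemaciclib in red, replicate 1 as circles and replicate 2 as squares. NCAPD2/NCAPD3 drops from 2.85 to 0.40 on average, the widest gap of the 7 pairs drawn, and NCAPH/NCAPH2 overlaps.

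Summed over the subunits that only condensin I uses (NCAPD2, NCAPG and NCAPH), the libraries held 102.6 and 100.2 CPM untreated and 52.3 and 50.2 CPM after the drug. NCAPD2 made up 84.3% and 84.8% of that sum untreated and 63.4% and 65.0% treated, while NCAPG and NCAPH together went from 16.1 and 15.2 to 19.1 and 17.6 CPM. The fall of the sum is therefore that of NCAPD2. The condensin II subunits NCAPD3 and NCAPG2 summed to 39.6 and 36.5 CPM untreated and to 49.1 and 53.5 CPM treated. In that sum NCAPD3 rose from a mean of 11.9 to 25.0 CPM, beside 26.2 and 26.3 CPM for NCAPG2. The kleisin NCAPH2 (42.6 and 40.0 CPM untreated, 47.6 and 47.5 CPM treated) is not among the 10 and was left out. The condensin I sum does hold its kleisin, so the sums of condensin I and condensin II are not alike in make-up. SMC2 and SMC4 summed to 60.7 and 65.1 CPM untreated and 70.0 and 69.3 CPM treated. The cohesin core of SMC1A, SMC3 and RAD21 went from 138.4 and 143.3 to 110.7 and 113.9 CPM. Within it RAD21 fell from a mean of 77.1 to 46.4 CPM and SMC3 from 28.5 to 23.0 CPM. SMC1A rose from 35.3 to 42.9 CPM, so the fall of the sum is not one of all its members. For none of these sums did the groups overlap, and of all tested genes taken singly 87.9% did not overlap either. With totals that leave out mitochondrially encoded genes and no TMM scaling, the log2 change of the cohesin core was -0.16 in place of -0.33. That of SMC2 and SMC4 was 0.31 in place of 0.15. With TMM scaling kept and those genes left out, RAD21 (-0.73) and SMC3 (-0.30) changed as in the main fit. All 10 members together went from 341.3 and 345.2 to 282.1 and 286.9 CPM, and the 8 without NCAPD2 and RAD21 from 179.2 and 181.7 to 204.2 and 206.2 CPM.

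Levels of different genes were compared per length of the longest annotated transcript, rescaled to the same total in each library. This scale has a total of its own and no TMM factor, and its changes between groups differ from the tested ones. SMC4, with a tested log2 fold change of 0.00, went from 20.8 and 22.5 untreated to 20.0 and 19.7 treated on it. In the edgeR fit with library size alone, also without TMM, SMC4 went the other way (0.051). The source of the difference was not tested. Untreated, RAD21 (52.6 ± 0.952, SD, n = 2), NCAPH2 (50.9 ± 2.58) and NCAPD2 (39.5 ± 0.769) were the most abundant per length of the 13 subunits. RAD21 and NCAPH2 did not differ beyond their spread. SMC4 (21.6 ± 1.17), SMC3 (17.7 ± 0.212), NCAPG2 (12.8 ± 1.32), STAG2 (11.7 ± 0.898) and SMC1A (9.10 ± 0.168) followed, of which NCAPG2 and STAG2 overlapped. The lowest were NCAPH (7.90 ± 0.104), SMC2 (7.10 ± 0.0556), STAG1 (5.71 ± 0.533), NCAPD3 (5.48 ± 0.134) and NCAPG (3.60 ± 0.372), of which STAG1 and NCAPD3 overlapped.

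After the drug NCAPH2 came first (53.7 ± 0.0955), then RAD21 (27.9 and 30.1 in the 2 libraries) and SMC4 (19.9 ± 0.192). NCAPD2 (13.9 ± 0.0999) was now within the range of SMC3 (13.1 ± 1.41), and the libraries of NCAPD3 (10.6 ± 1.20) and SMC1A (10.1 ± 0.558) overlapped. Per length NCAPD2 exceeded NCAPD3 by 7.22 times untreated and 1.32 times treated, and SMC4 exceeded SMC2 by 3.05 and 2.18 times. These ratios depend on the length used, and with the union of exons the NCAPD2 to NCAPD3 ratios were 10.2 and 1.85. The untreated order depends on it too: with the union of exons NCAPD2 (45.9) and NCAPH2 (45.3) came before RAD21 (43.2), SMC3 (23.1) before SMC4 (19.0), and NCAPD3 (4.51) was lowest, just below NCAPG (4.62).

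**Figure D4:**
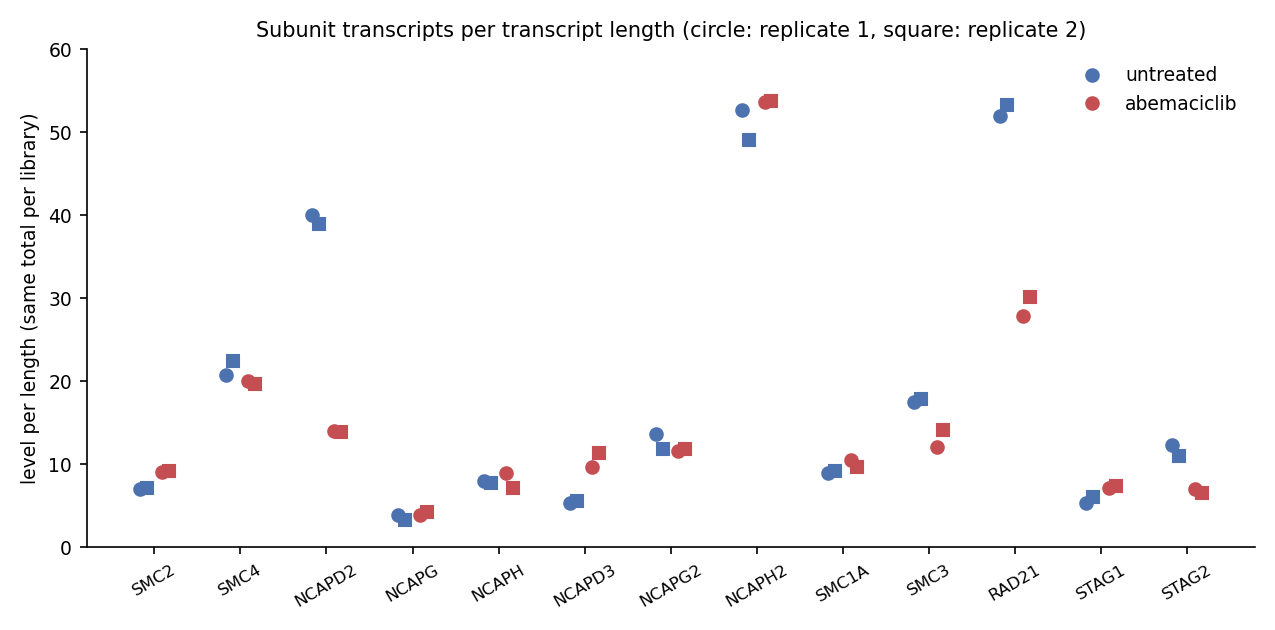
Level per transcript length (rescaled to the same total in each library, y axis from 0) of the 10 members and of NCAPH2, STAG1 and STAG2 in each library, untreated in blue and abemaciclib in red, replicate 1 as circles and replicate 2 as squares. The members differ widely in level, from 3.60 for NCAPG to 52.6 for RAD21 untreated, and NCAPD2 drops from near the top to the level of SMC3.

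Genes that load, lock and release cohesin are background for its subunits. The calls in this list and those that follow stand beside 39.3% of all tested genes called lower and 38.0% called higher. Of 5 genes of loading and release, 2 were lower and 0 higher in edgeR, and 3 did not pass (0 were higher with DESeq2 or at an unadjusted p under 0.05). MAU2, the partner of the loader NIPBL, fell by 0.37 on the log2 scale (log2 fold change -0.37 ± 0.05) and PDS5A fell slightly (-0.11 ± 0.05, edgeR adjusted p = 0.0416). NIPBL (-0.16 ± 0.09), PDS5B (-0.07 ± 0.12) and the release factor WAPL (-0.02 ± 0.07) did not pass. The count of 2 became 1 with DESeq2 size factors, with library size alone, with low-count genes kept, with DESeq2 and without abemaciclib replicate 2. The median was -0.11, and -0.01 for all tested genes.

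Of 8 genes of cohesin acetylation, cohesion establishment and loop anchoring, 3 were higher, 3 lower and 2 did not pass, with a median of -0.21. The share called in either direction among all tested genes was 77.3%. CDCA5, which encodes sororin, the protein that shields cohesin from WAPL in G2, rose from 11.5 and 11.9 to 24.6 and 23.8 CPM (1.05 ± 0.08). The clamp loader subunits DSCC1 (1.14 ± 0.16) and CHTF18 (0.95 ± 0.07), which work at the replication fork, also rose. The acetyltransferase ESCO1 (-0.73 ± 0.10), the helicase DDX11 (-0.70 ± 0.04) and CTCF, which stops cohesin at loop anchors (-0.29 ± 0.06), fell. ESCO2, the acetyltransferase of S phase, was under 2 CPM in each library and did not pass (-0.58 ± 0.30, edgeR adjusted p = 0.0741), nor did the deacetylase HDAC8 (-0.12 ± 0.08).

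Of 5 genes of cohesin protection and cleavage, 3 were lower and 2 higher, with a median of -0.80. Among all tested genes 39.3% were called lower and 38.0% higher. ESPL1, which encodes separase, the protease that cuts RAD21, fell from 23.9 and 23.7 to 8.43 and 7.97 CPM (-1.54 ± 0.09). PTTG1, its inhibitor securin, fell from 48.1 and 46.1 to 17.9 and 17.5 CPM (-1.41 ± 0.06). SGO1, the shugoshin that protects centromeric cohesin, fell (-0.80 ± 0.21). SGO2 (0.28 ± 0.12) and the kinase HASPIN (0.56 ± 0.23) rose, and both calls were lost in DESeq2, where the lower calls went from 3 to 2. The 2 higher calls became 1 without untreated replicate 1 and 0 without untreated replicate 2 or without abemaciclib replicate 1.

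Of 9 genes of the related SMC5/6 complex, which acts in DNA repair, 5 were lower, 3 higher and 1 did not pass, with a median of -0.18. These calls stand beside 77.3% of all tested genes called in either direction. NSMCE1 (-0.80 ± 0.06), NSMCE4A (-0.56 ± 0.09), NSMCE2 (-0.38 ± 0.10), SMC5 (-0.38 ± 0.10) and SLF2 (-0.18 ± 0.05) fell, and DESeq2 called 2 of the 9 lower. NSMCE3 (0.39 ± 0.07), SLF1 (0.76 ± 0.18) and EID3 rose, the last from 3 and 4 counts to 26 and 16. SMC6, the partner of SMC5, did not pass (-0.06 ± 0.08).

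Of 9 genes that compact or coat mitotic chromosomes or act on condensin in either direction, 8 were lower, 0 higher and 1 did not pass in edgeR, with a median of -0.79 (0 were higher with DESeq2 or at an unadjusted p under 0.05). Among all tested genes 39.3% were called lower and 38.0% higher. AURKB (-2.26 ± 0.15), MKI67, which coats mitotic chromosomes (-2.04 ± 0.13), topoisomerase TOP2A (-1.23 ± 0.07), CDK1, which phosphorylates condensin (-1.05 ± 0.09), TOP2B (-0.79 ± 0.06), MCPH1, an inhibitor of condensin II (-0.48 ± 0.10), PLK1 (-0.42 ± 0.07) and AKAP8 (-0.17 ± 0.06) fell. KIF4A, the kinesin that shares the chromosome axis with condensin I, did not pass (0.06 ± 0.11, edgeR adjusted p = 0.636).

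**Figure D5:**
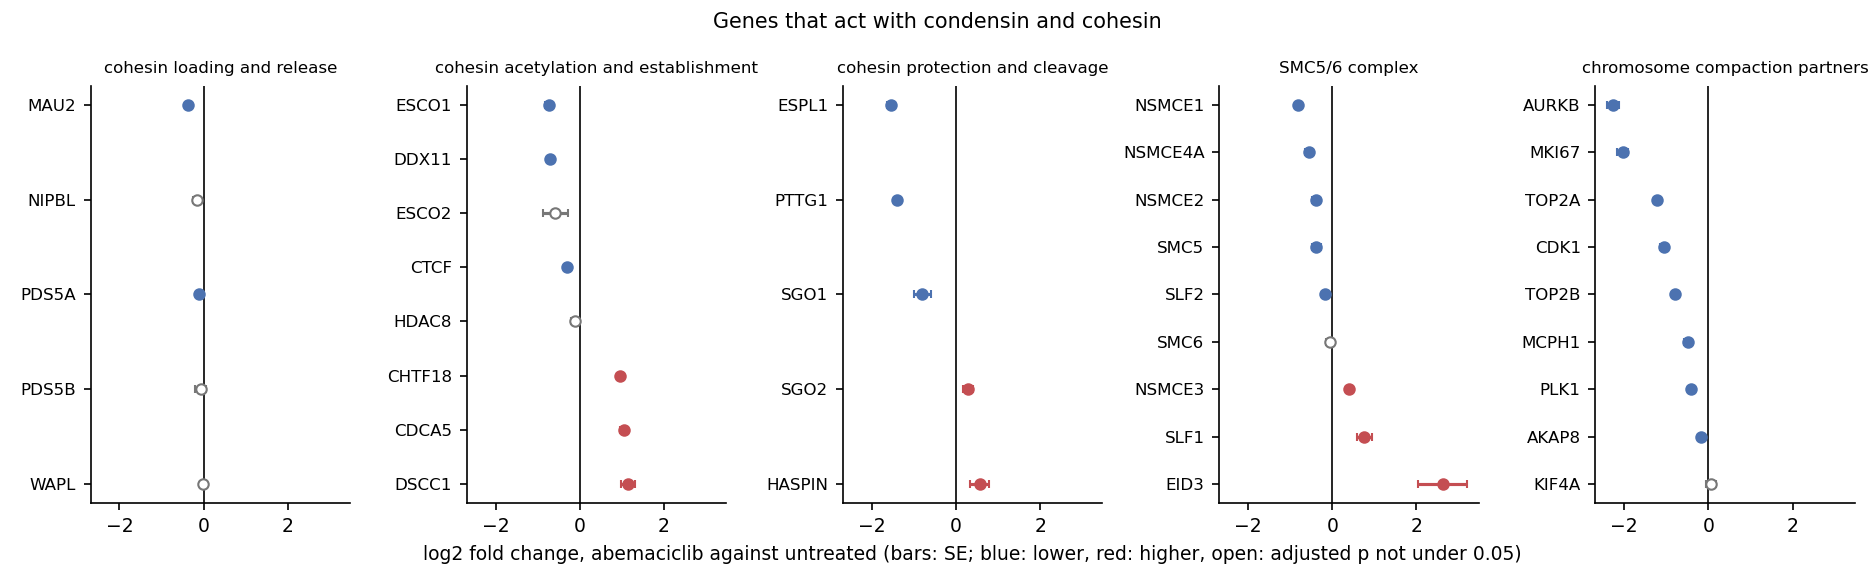
Log2 fold change, abemaciclib against untreated (x axis; bars are the SE), of the genes in the 5 lists that act with or beside condensin and cohesin, 1 panel per list (blue lower, red higher, open where the adjusted p was not under 0.05). ESPL1 and PTTG1 at -1.54 and -1.41 lie to the left, and CDCA5, CHTF18 and DSCC1 near 1 to the right.

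Lists of general cell cycle genes were read beside the 38.0% of all genes called higher and the 39.3% called lower. Of 18 genes of S phase, 14 were higher, 2 lower and 2 did not pass, with a median of 0.91. The furthest rises were those of the replisome subunits GINS4 (2.59 ± 0.09) and GINS3 (2.00 ± 0.11), and RRM2 (-1.18 ± 0.07) and PRIM1 (-0.72 ± 0.19) fell. Of 16 genes of mitosis, 10 were lower, 1 higher and 5 did not pass, with a median of -0.47, and 8 were lower with DESeq2, without untreated replicate 1 and without abemaciclib replicate 2. KIF20A (-2.49 ± 0.09) and NUSAP1 (-1.77 ± 0.07) fell furthest and CCNB1, cyclin B1, rose (0.48 ± 0.05). The part of cell cycle phase in the changes of the subunits was not tested. The germ-line cohesin genes were close to absent or fell, with SMC1B at 0 counts in all 4 libraries, RAD21L1 at 0 to 3.04 counts, REC8 falling from 14.1 and 11.3 to 3.24 and 2.63 CPM (-2.13 ± 0.14) and STAG3 falling from near 1 CPM (-2.19 ± 0.44).

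Some subunit genes share exons with a gene on the opposite strand, and whether the counting used strand is not stated in the labels. By GENCODE release 29 the shared part of the exonic bases was 33.1% for NCAPG (with LCORL), 25.6% for SMC4 (IFT80 and TRIM59), 14.2% for RAD21 (RAD21-AS1 and UTP23), 8.89% for NCAPD3 (JAM3, VPS26B and AP001775.2), 7.49% for NCAPD2 (MRPL51), 0.372% for SMC1A (RIBC1), 21.2% for STAG1 (PCCB) and 3.29% for STAG2 (TENM1 and AL121601.1). No opposite-strand exon was shared by SMC2, SMC3, NCAPG2, NCAPH or NCAPH2. RAD21-AS1 had 11 counts or fewer in each library, and the pseudogene NCAPD2P1 had 4 or fewer, beside 799 or more for NCAPD2 itself. The antisense gene SMC2-AS1 had 24 and 21 counts untreated and 5 and 5 treated, beside the rise of SMC2. Levels of the protein-coding genes that share exons, such as UTP23, MRPL51 and LCORL, were not examined. The part of shared exons in the changes was not tested.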

How the data were processed

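Per the file headers, each deposited file gives the expected count of every gene in 1 library, an estimate that need not be whole and was not scaled for depth or length. STAR 2.7.2b and RSEM 1.3.1 on GRCh38 are listed in the submitters' processing notes, with no annotation release or strand setting. Per the labels' protocols, RNA was taken with Trizol and its poly-A part went into TruSeq Stranded mRNA libraries. Expected counts were rounded and tested with edgeR 4.0.16 (R 4.3.3) (quasi-likelihood F test, filterByExpr filter, TMM scaling, robust estimation, group as the only term), two-sided, with Benjamini-Hochberg adjustment over 17207 genes. The SE is the log2 fold change divided by the square root of F. Alternatives used DESeq2 1.42.0 and limma 3.58.1. The fit was tested on simulated data. Ratios of subunits used counts plus 0.5. Lengths, positions and overlaps came from GENCODE release 29 (GRCh38, 96.4% of identifiers matched) and promoters from RefSeq (GRCh38.p14). Counts of the libraries of 1 group differed beyond sampling noise (chi-square per degree of freedom 3.56 untreated, 1.95 treated), so they were kept as 2 libraries, which does not tell separate cultures from repeat preparations of 1 RNA. Every member was named. Called genes of a list of up to 9 could be named, and of longer lists the 2 with the largest rise and the 2 with the largest fall. The members, lists and tests were chosen with earlier results of these data known.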

Additional observations from a re-analysis of the deposited data

How the results depend on the processing

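Across 13 alternatives, NCAPD2 (-1.40 to -1.33), RAD21 (-0.78 to -0.67), SMC3 (-0.41 to -0.19), NCAPD3 (0.96 to 1.19), SMC2 (0.47 to 0.54) and SMC1A (0.23 to 0.35) kept their direction and their call, as did NCAPH2, STAG1 and STAG2. Genes called over the whole table ranged from 5357 to 6934 higher and 5335 to 6990 lower. The uncalled SMC4 turned positive with DESeq2 size factors in edgeR (0.0049), library size alone (0.051), no filter on low counts (0.012), DESeq2 (0.012), without untreated replicate 2 (0.063) and without abemaciclib replicate 2 (0.020), and the range with each library left out was -0.060 to 0.063. The uncalled NCAPG2 ranged from -0.087 (without untreated replicate 2) to 0.11 in the same way. The difference of NCAPH/NCAPH2, -0.058, was -0.21 to 0.099 with each library left out, turning sign without abemaciclib replicate 2. Fits that leave a group with 1 library assume that it varies like the other group.

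Totals without mitochondrially encoded genes, with no TMM scaling, shift every log2 change by 0.17 and the median of all genes to 0.16. The sums of members then changed by -0.82 (condensin I), 0.60 (condensin II without NCAPH2), 0.31 (SMC2 and SMC4), -0.16 (cohesin core) and -0.10 (all members), from -0.98, 0.43, 0.15, -0.33 and -0.27. Without untreated replicate 1 the sum of SMC2 and SMC4 changed by 0.096. The edgeR fit that left those genes out and kept TMM scaling gave RAD21 at -0.73, SMC3 at -0.30 and a median of -0.01. Library size alone shifts every value by 0.0536, which put the sums at -0.93, 0.48, 0.20, -0.27 and -0.22 in the same order. With union-of-exon lengths, untreated and treated ratios were 10.2 and 1.87 for NCAPD2 over NCAPD3 (from 7.22 and 1.33, means of per-library ratios), 2.81 and 2.26 for NCAPG2 over NCAPG (from 3.54 and 2.85) and 2.13 and 1.52 for SMC4 over SMC2 (from 3.05 and 2.18). A promoter window that runs 50 bases past the start gave CHR letters in 7 members (from 4). By start these were 7 of 13 (from 4), beside 16.4% of all starts (from 14.3%).

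In the lists, lower calls of cohesin loading and release went from 2 to 1 with DESeq2 size factors, library size alone, no filter on low counts and DESeq2, and were 1 to 3 with each library left out. Higher calls of cohesin protection and cleavage were 0 with DESeq2 and 0 to 2 with each library left out. DESeq2 called 2 SMC5/6 genes and 1 S phase gene lower, and library size alone called 2 mitosis genes higher and 9 lower. With replicate number as a block, 6451 genes were higher and 6657 lower, and 4 members higher and 3 lower. The block changed no call of a member. Deviations of same-numbered libraries from their group means had a correlation of -0.0033. With 2 libraries per group this cannot show whether same-numbered libraries shared a culture, preparation or run, and the labels give only the number.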
